A study of Mus musculus with 36 samples.

Results

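The response to a nerve injury in the dorsal root ganglion (DRG) was set against that in the dorsal part of the spinal cord in wild-type female mice, using 18 of the 36 RNA sequencing libraries of the series. Spared nerve injury (SNI) cuts the tibial and common peroneal branches of the sciatic nerve and leaves the sural branch intact, and is widely used as a model of neuropathic pain. The 18 libraries were those labelled wild type, in 4 groups, with 4 of DRG after SNI, 5 of DRG from naive mice, 4 of dorsal cord after SNI and 5 of dorsal cord from naive mice. The other 18 libraries came from knockout mice and entered no result of the text other than an alternative fit with all 36 libraries. The labels gave neither the time after surgery nor the side, the spinal level or the age, and did not state that libraries came from separate animals, so the p values measure the spread between these libraries. Libraries are called here by group and by the number in their column name, which DRG and cord share.

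The DRG holds the cell bodies of the sensory neurons whose axons the injury cuts, and a cut axon sets off a program of transcription factors, growth genes and neuropeptides in its cell body. The dorsal cord holds the central endings of those axons and the neurons they contact, while the motor neurons, whose axons also run in the sciatic nerve, lie in the ventral horn beside it. The best known answer of the cord to a peripheral nerve injury is a reaction of microglia, which is driven in part by Csf1, a growth factor made by injured sensory neurons.

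Levels below are in CPM, the estimated counts of a gene scaled to a common library size, and changes are log2 fold changes of SNI against naive libraries, on which 1 is a doubling. The DRG minus cord difference is the DRG log2 fold change less the cord log2 fold change, so a positive value is a higher response in DRG. Values after ± are standard deviations for CPM (n = 4 SNI and 5 naive). For log2 values they are only approximate standard errors, worked back from each fold change and its test. The value of a difference therefore need not follow from those of the tissues. Sprr1a had 0.36 in DRG, 0.38 in cord and 1.01 for the difference, and Ccl12 had 0.26, 0.35 and 0.18. A gene was called at an adjusted p under 0.05 in edgeR's quasi-likelihood test with Benjamini-Hochberg adjustment over all genes tested.

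Summed estimated counts per library ran from 22.34 to 27.27 M in DRG and from 22.5 to 24.76 M in cord. Markers of each tissue stood where the labels put them. Avil, a marker of sensory neurons, had 380 to 635 CPM in the 9 DRG libraries and 0.237 to 1.12 CPM in the 9 cord libraries, and Slc32a1, the transporter gene of inhibitory neurons, had at most 0.529 CPM in DRG and 129 to 179 CPM in cord. Blood and skeletal muscle transcripts varied between libraries of 1 group. The sum of 7 blood genes was 449 to 1627 CPM in DRG SNI and 720 to 3548 CPM in DRG naive libraries, with no member called in any comparison. The sum of 8 muscle genes was 1.45 to 13.7 CPM in DRG SNI and 2.57 to 85.8 CPM in DRG naive libraries, and 3 of them fell in DRG. Whether blood or muscle tissue contributed to other differences was not tested. In bulk tissue, fewer cells of a type and less RNA per cell cannot be told apart.

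Injury changed many genes in DRG and few in cord, and the cord changes were almost all rises. Of 20044 genes tested, 4675 changed in DRG (23.3%), 2426 higher (12.1%) and 2249 lower (11.2%). In cord 250 changed (1.25%), 248 higher (1.24%) and 2 lower (0.00998%), the otogelin gene Otog and Pam16, a gene of mitochondrial protein import. The change exceeded 2-fold for 668 rises and 131 falls in DRG, and for 133 rises and 1 fall in cord. The DRG minus cord difference itself was called for 1735 genes (8.66%), with 970 higher in DRG (4.84%) and 765 lower (3.82%). SNI and naive libraries did not overlap for 17.6% of genes in DRG and 5.02% in cord. DRG libraries varied more among themselves than cord libraries (common biological coefficient of variation 0.165 in DRG and 0.0841 in cord, 0.133 in the fit that pools them). With each tissue fitted alone, 3216 genes were called in DRG and 450 in cord, so the gap in number was smaller but did not turn round.

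Most genes that rose in cord also rose in DRG, while most of the DRG response had no counterpart called in cord. Rises in both tissues were called for 182 genes, which is 73.4% of the cord rises and 7.5% of the DRG rises. Among these 182 the rise was larger in DRG for 25 and larger in cord for 5, and the difference was not called for 152. A further 2244 genes rose in DRG and were not called in cord, and the difference was called for 933 of them. In the same way 2241 genes fell in DRG without a cord call, and the difference was called for 707. For the rest, a missing cord call does not show that the tissues differed. In the other direction, 59 genes rose in cord without a DRG call, 30 of them with a called difference. Opposite directions were called for 7 genes, all lower in DRG and higher in cord, and Pam16 was the 1 gene called lower in both. The picture was close to this among the 15401 genes with at least 1 CPM in a group mean of each tissue, where 73.9% of the cord rises were called in DRG and 8.1% of the DRG rises in cord.

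**Figure D1:**
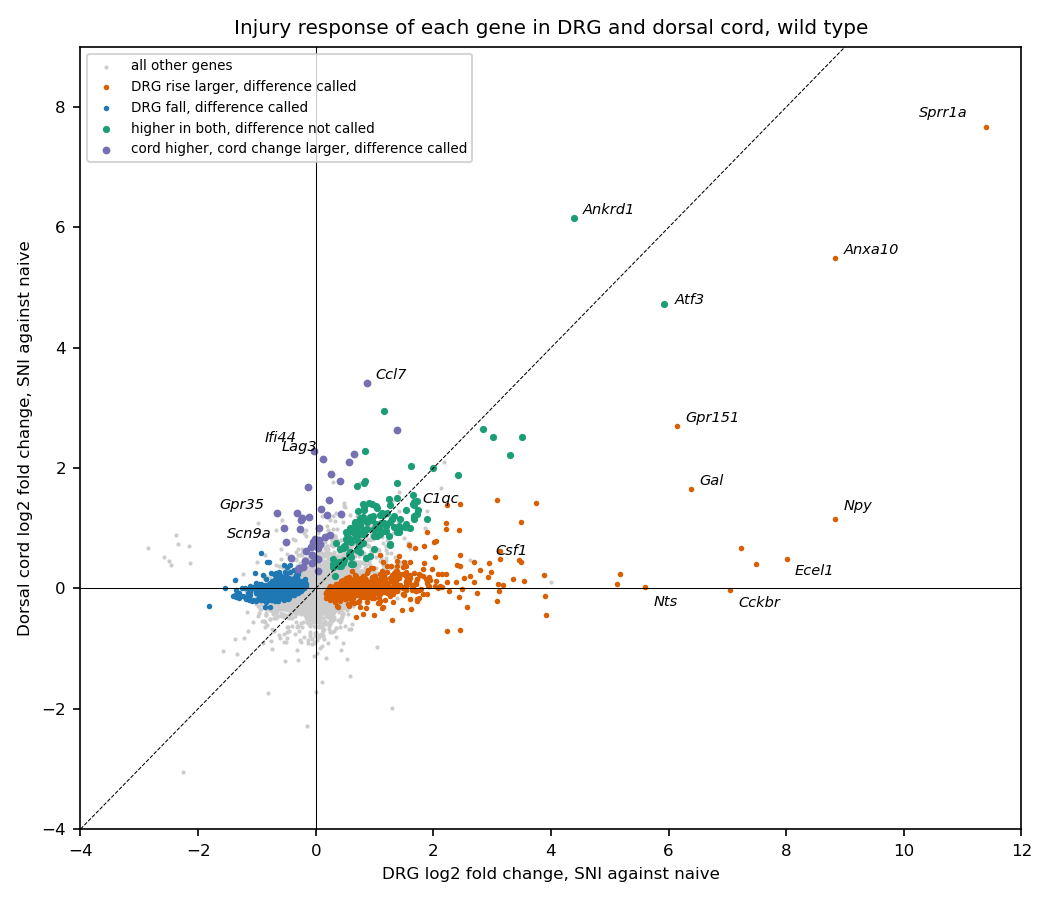
Each point is a gene measured in both tissues (15401 genes), with its log2 fold change in DRG, SNI against naive, on the horizontal axis and in dorsal cord on the vertical axis. Orange points have a DRG rise that exceeds the cord change by a called difference (844 genes), blue points a DRG fall with a called difference, green points a rise in both tissues with no called difference (136 genes) and purple points a cord rise above the DRG change by a called difference (41 genes), while the dashed line marks equal fold changes. The orange cloud lies along the horizontal axis, with Sprr1a, Atf3 and Anxa10 far out in both directions.

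Most listed axon injury genes rose in DRG, and only some of them rose in cord. The neuronal injury list holds 33 transcription factors, growth genes, peptides and receptors known from cut sensory axons. Of these 33, 29 rose and 1 fell in DRG and 12 rose in cord, and the difference was called higher in DRG for 23. The shares of all genes tested were 12.1% higher in DRG, 1.24% higher in cord and 4.84% with a difference higher in DRG. The list was chosen with earlier results of these data known, so its counts describe the list and are no test of it. The median log2 fold change of the list was 2.95 in DRG and 0.30 in cord, against -0.00 and -0.02 over all genes tested. All 12 that rose in cord also rose in DRG.

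Atf3 (GRCm38 chr1:191170296-191218039, minus strand) encodes the transcription factor that marks axotomized neurons. It had 366, 317, 381 and 288 CPM in DRG SNI numbers 1 to 4, against 5.05, 5.75, 5.24, 5.13 and 6.52 CPM in DRG naive numbers 1 to 5. In cord it had 31.0, 11.6, 32.6 and 23.5 CPM in SNI libraries, against 1.5, 0.553, 0.545, 1.09 and 0.930 CPM in naive libraries. Both tissues separated fully, and the estimated rise was the larger in DRG (5.93 ± 0.24 in DRG, adjusted p = 8.78e-12, and 4.73 ± 0.30 in cord, adjusted p = 9.79e-08). The difference was not called (1.20 ± 0.43, adjusted p = 0.107).

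Sprr1a, a cornified envelope gene that cut sensory neurons switch on, had the largest fold change of the listed genes in each tissue. It had 691, 491, 439 and 389 CPM in DRG SNI libraries, against 0.0834, 0.247, 0.281, 0.203 and 0.0846 CPM in DRG naive libraries. Cord levels were 53.5, 23.7, 47.1 and 34.7 CPM in SNI libraries, against 0.0909, 0.507, 0.227, 0.0473 and 0.0845 CPM in naive libraries. The gene was thus close to silent in naive tissue of both kinds and present in every SNI library. The rise was 11.36 ± 0.36 in DRG and 7.67 ± 0.38 in cord, and the difference of 3.69 ± 1.01 was called (adjusted p = 0.0272). That call was lost without cord naive number 2 (adjusted p = 0.184), without cord naive number 3 (0.0601), with no filter on low counts (0.0921) and with limma voom weights (0.176), while the value stayed between 2.96 and 3.66 in these fits.

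The stretch before the start of Sprr1a is shown because its 2 capital runs match the motif of AP-1, the dimer family that Jun and Atf3 belong to, spelled TGANTCA (N is any base) and searched on both strands. The 250 bases before the RefSeq start (build GRCm38.p6, chr3:92485882-92486131, minus strand) hold them 146 and 116 bases before the start.
Sprr1a: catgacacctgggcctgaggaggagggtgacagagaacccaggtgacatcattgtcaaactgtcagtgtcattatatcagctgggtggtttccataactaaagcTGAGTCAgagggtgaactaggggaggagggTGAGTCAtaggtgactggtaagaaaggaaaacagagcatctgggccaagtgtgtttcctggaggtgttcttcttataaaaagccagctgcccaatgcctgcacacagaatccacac
The same motif stood in the 250 bases before 20 of the 132 genes that rose in both tissues and have a promoter in the RefSeq table (15.2%). The share was 7.03% of 711 genes whose DRG rise was the larger, and 6.04% of all 13473 genes tested that have one. A match of letters does not show that a factor binds there.

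Gal (chr19:3409915-3414544, minus strand) encodes galanin, a peptide that injured sensory neurons make in quantity. It reached 1094, 1196, 1011 and 1034 CPM in DRG SNI libraries, against 13.6, 14.8, 11.4, 12.6 and 12.2 CPM in DRG naive libraries. The cord libraries held 34.8, 20, 31.7 and 24.7 CPM in SNI libraries, against 9.82, 9.13, 9.53, 8.05 and 7.78 CPM in naive libraries. Groups did not overlap in either tissue, but the DRG rise was the larger by 4.74 ± 0.19 (adjusted p = 4.87e-12). In CPM, the cord rise came to 1.77% of the DRG rise for Gal, 7.15% for Atf3, 7.87% for Sprr1a, 3.91% for the orphan receptor gene Gpr151 and 29.1% for the annexin gene Anxa10.

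The sensory neuron markers Avil, Scn10a and Mrgprd were near 0 in cord, and none of 8 DRG tissue markers was called there. The sum of all 8 was 226 to 483 CPM in cord SNI and 243 to 570 CPM in cord naive libraries. Avil had 0.326, 1.12, 0.491 and 0.597 CPM in cord SNI libraries, against 0.909, 0.599, 0.454, 0.237 and 0.296 CPM in cord naive libraries, and the sodium channel gene Scn10a had at most 1.03 CPM. Calca, the peptide gene of CGRP, which motor neurons also express, was not near 0, with 59.2, 20.7, 49.1 and 34.0 CPM in cord SNI libraries against 24.2 to 36 CPM in cord naive libraries, and was not called (adjusted p = 0.707). Of 19 nociceptor genes, Scn9a and Runx1 rose in cord, with values given below. Within the cord SNI libraries, number 2 was the lowest for Atf3, Sprr1a, Gal, Npy, Anxa10 and Gpr151. It was also the lowest of the 4 for motor neuron genes. The sum of 8 motor neuron markers was 203, 58.8, 152 and 89.6 CPM in cord SNI numbers 1 to 4, and 114 to 217 CPM in cord naive libraries. Chat, the acetylcholine synthesis gene that defines them, had 13.8, 6.65, 10.9 and 8.14 CPM in cord SNI libraries and 10.5 to 16.1 CPM in cord naive libraries. No motor neuron marker was called in cord. The part of motor neurons in the cord rise of the axon injury genes was not tested.

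**Figure D2:**
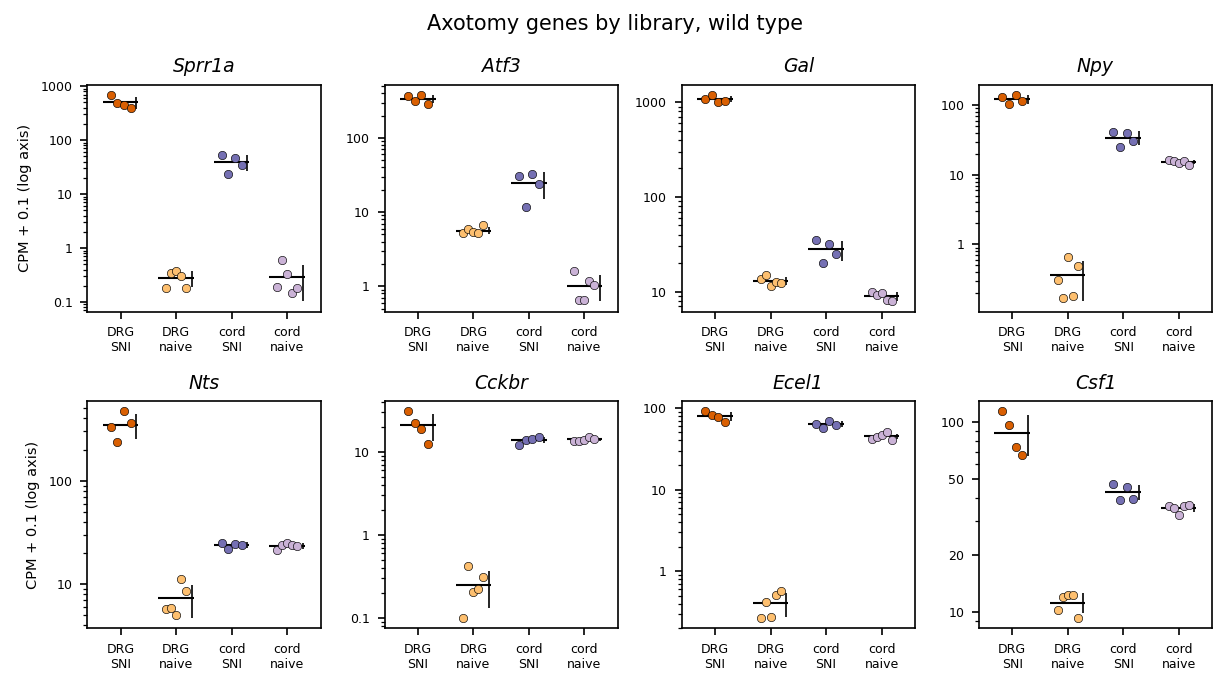
CPM plus 0.1 on a log axis in each library for 8 axon injury genes, with DRG SNI (4), DRG naive (5), cord SNI (4) and cord naive libraries (5) from left to right, a horizontal bar at the mean and a vertical bar of 1 standard deviation. Sprr1a, Atf3 and Gal separate in both tissues, whereas Nts and Cckbr separate in DRG and lie level in cord at a naive level above that of naive DRG.

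Several of the most DRG-led genes were already expressed in naive cord. Nts, which encodes the peptide neurotensin, had 331, 236, 469 and 360 CPM in DRG SNI libraries, against 5.63, 5.82, 4.96, 11.2 and 8.50 CPM in DRG naive libraries. Dorsal cord contained 25.2, 21.6, 24.4 and 23.8 CPM in SNI libraries, against 21.2, 23.7, 25.2, 23.9 and 23.4 CPM in naive libraries. The DRG groups lay far apart and the cord groups overlapped, and the difference was 5.59 ± 0.29 (adjusted p = 6.12e-10). Cckbr, a cholecystokinin receptor gene, had 30.5, 22.3, 18.8 and 12.4 CPM in DRG SNI libraries, against 0, 0.317, 0.105, 0.122 and 0.212 CPM in DRG naive libraries. Its cord libraries held 12.1 to 14.8 CPM after SNI, against 13.4 to 15 CPM in naive mice. Injured DRG therefore reached the level that cord has with or without injury (difference 7.06 ± 0.40, adjusted p = 1.85e-09). Sez6l, a membrane protein gene of neurons, behaved alike, with 45.3 to 93.0 CPM in DRG SNI, 3.21 to 5.85 in DRG naive, 85.6 to 99.2 in cord SNI and 93.8 to 108 CPM in cord naive libraries.

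Npy, the gene of neuropeptide Y, and the endopeptidase gene Ecel1 had a naive cord level far above that of naive DRG. Both rose in cord, by less than in DRG. Npy had 131, 103, 141 and 115 CPM in DRG SNI libraries, against 0.209, 0.0705, 0.562, 0.0814 and 0.381 CPM in DRG naive libraries. Its cord values were 41.4, 24.9, 39.6 and 30.9 CPM in SNI libraries, against 13.9 to 16.4 CPM in naive libraries. The rise was 8.83 ± 0.25 in DRG and 1.16 ± 0.16 in cord (adjusted p = 0.000524), with a difference of 7.68 ± 0.32 (adjusted p = 2.29e-11), the largest by the naming rule. Ecel1 had 66.5 to 90.7 CPM in DRG SNI, 0.167 to 0.465 in DRG naive, 56.0 to 69.4 in cord SNI and 40.8 to 50 CPM in cord naive libraries (difference 7.51 ± 0.20, adjusted p = 6.99e-15). The stress peptide gene Crh averaged 8.93 ± 3.55 CPM in DRG SNI and 0.0528 ± 0.0330 in DRG naive libraries, and 2.25 ± 0.391 in cord SNI and 1.42 ± 0.451 CPM in cord naive libraries.

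Further genes with large DRG-led differences were likewise rare in naive DRG. Grp, the gene of gastrin-releasing peptide and a marker of dorsal horn neurons, had 1.25 to 1.90 CPM in DRG SNI and at most 0.0846 CPM in DRG naive libraries, and 6.99 to 9.64 in cord SNI and 6.63 to 8.94 CPM in cord naive libraries. The complement-like synaptic gene C1ql2 averaged 2.33 ± 1.08 CPM in DRG SNI and 0.00705 ± 0.0158 in DRG naive libraries, and 2.36 ± 0.309 in cord SNI and 1.77 ± 0.326 CPM in cord naive libraries. The homeobox gene En1 averaged 0.807 ± 0.351 CPM in DRG SNI and 0.00705 ± 0.0158 in DRG naive libraries, and 2.02 ± 0.558 in cord SNI and 1.49 ± 0.185 CPM in cord naive libraries. No fold is given for C1ql2 and En1, whose naive DRG level rests on a single count. Wfdc3, a gene of a whey acidic protein domain, rose in DRG (31.7 ± 12.2 against 0.668 ± 0.166 CPM) and was low in cord (0.687 ± 0.162 in SNI and 0.570 ± 0.0692 CPM in naive libraries).

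Gap43, Sox11, Flrt3 and Stmn4, all of the neuronal injury list, rose in DRG, each with a called difference from cord. Gap43, a growth cone protein gene, had 613, 529, 578 and 535 CPM in DRG SNI libraries, against 137 to 149 CPM in DRG naive libraries. In cord it had 178, 162, 172 and 159 CPM in SNI libraries, against 136, 138, 133, 136 and 129 CPM in naive libraries. The cord rise was small but did not overlap (0.32 ± 0.06, adjusted p = 0.00314), and the DRG rise exceeded it by 1.65 ± 0.08 (adjusted p = 6.32e-11). Sox11, a transcription factor gene of axon growth, rose in both as well (2.95 ± 0.09 in DRG and 0.43 ± 0.10 in cord, adjusted p = 0.0319). Flrt3, a cell adhesion and guidance gene, rose in DRG by 3.54 ± 0.05 and was not called in cord (0.12 ± 0.05, adjusted p = 0.738), with a difference of 3.43 ± 0.07 (adjusted p = 4.19e-16). Stmn4, a stathmin of microtubules, had 101 ± 9.83 CPM in DRG SNI, 11.7 ± 0.913 in DRG naive, 156 ± 8.65 in cord SNI and 160 ± 6.61 CPM in cord naive libraries.

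Csf1, the growth factor of microglia and macrophages, rose in DRG alone by the calls. It had 114, 96.5, 73.7 and 66.7 CPM in DRG SNI libraries, against 10.1, 11.9, 12.1, 12.2 and 9.18 CPM in DRG naive libraries. Cord levels were 47.0, 39.0, 45.3 and 39.3 CPM in SNI libraries, against 32.2 to 36.3 CPM in naive libraries. Each cord SNI library lay above each naive one, but the cord change was not called (0.28 ± 0.13, adjusted p = 0.753), and the difference was 2.70 ± 0.18 (adjusted p = 1.51e-08). Other genes called higher in both tissues included the follistatin gene Fst (3.51 ± 0.25 in DRG and 2.52 ± 0.38 in cord), the kelch gene Kbtbd12 (3.02 ± 0.23 and 2.51 ± 0.30) and Ifi202b (2.85 ± 0.24 and 2.65 ± 0.33), and none of these 3 had a called difference. Ifi202b has near-identical gene copies that the counting may not separate. Ankrd1, a stretch-responsive ankyrin repeat gene, averaged 1.09 ± 0.176 CPM in DRG SNI and 0.0447 ± 0.0381 in DRG naive libraries, and 1.02 ± 0.416 in cord SNI and 0.00947 ± 0.0212 CPM in cord naive libraries.

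Falls were a feature of DRG. Of 19 nociceptor genes, the channels, receptors and peptides of pain-sensing neurons, 8 fell and none rose in DRG, while 2 rose and none fell in cord, and the difference was called lower for 5. Of all genes tested, 11.2% fell in DRG, 1.24% rose in cord and 3.82% had a lower difference. Scn9a and Runx1 were among these 5 nociceptor genes and rose in cord, and the DRG fall of Runx1 was not called. The list's median was -0.53 in DRG and -0.08 in cord. Tac1, the gene of substance P, had 135, 124, 160 and 140 CPM in DRG SNI libraries, against 244, 216, 212, 247 and 266 CPM in DRG naive libraries. The cord libraries held 39.4, 45.4, 45.5 and 45.3 CPM in SNI libraries, against 37.8, 41.2, 37.7, 34.9 and 32.8 CPM in naive libraries. The DRG groups were apart and the cord groups overlapped, and the difference was -1.01 ± 0.12 (adjusted p = 1.47e-05). The irritant channel gene Trpa1 fell by 0.75 ± 0.09 in DRG, with a difference of -0.92 ± 0.22 (adjusted p = 0.0109), and was under 1 CPM on average in both cord groups. The somatostatin gene Sst fell in DRG (-0.64 ± 0.10), where it is rare (2.30 against 3.59 CPM), and not in cord (98.9 ± 6.47 in SNI and 105 ± 5.71 CPM in naive libraries).

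Potassium channel genes, whose products restrain firing, fell for 12 of 20 members in DRG, 1 rose (Kcnq3), and none was called in cord. Over all genes tested, 11.2% fell in DRG and only 1.25% were called in cord. The difference was called lower for 6, and the medians were -0.51 in DRG and -0.08 in cord. Kcnb2, a delayed rectifier channel gene, had 111, 119, 102 and 129 CPM in DRG SNI libraries, against 203, 204, 203, 209 and 206 CPM in DRG naive libraries. Dorsal cord contained 22.0, 21.6, 23.1 and 24.3 CPM in SNI libraries, against 23.4, 25.2, 27.9, 23.5 and 24.5 CPM in naive libraries. The naive DRG libraries were within a few CPM of each other and the SNI libraries all lay well below them (-0.83 ± 0.07 in DRG and -0.13 ± 0.07 in cord). The difference was -0.70 ± 0.09 (adjusted p = 5.73e-05). Kcnt1, a sodium-activated channel gene, had 151 ± 14.3 CPM in DRG SNI, 251 ± 19.7 in DRG naive, 167 ± 11.2 in cord SNI and 166 ± 4.07 CPM in cord naive libraries (difference -0.74 ± 0.10, adjusted p = 6.01e-05). Of 12 general neuronal genes, 9 had a DRG value below 0 and the medians were -0.27 in DRG and -0.11 in cord. Of these 12, 2 rose in DRG, the microtubule genes Stmn2 (0.97 ± 0.09) and Tubb3 (0.84 ± 0.11), and 3 fell, Snap25, Nefl and Elavl4, with none called in cord.

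Some microglia and complement genes rose in both tissues. Of 16 resident microglia genes 12 rose in DRG and 11 in cord, against 12.1% and 1.24% of all genes tested. Of the 16 microglia genes 8 rose in both, and the medians were 1.22 and 0.93. In DRG these genes are also made by resident macrophages. P2ry12, the purine receptor gene of microglia, had 13.4, 12.4, 15.4 and 14.2 CPM in DRG SNI libraries, against 8.84, 7.26, 8.26, 8.34 and 8.89 CPM in DRG naive libraries. Its cord values were 57.0, 50.1, 57.7 and 53.4 CPM in SNI libraries, against 29.6, 27.4, 33.6, 27.9 and 25.6 CPM in naive libraries. No SNI library overlapped a naive one, and the difference of -0.18 ± 0.12 was not called (adjusted p = 0.441). Csf1r, the receptor of Csf1, had 89.2, 111, 141 and 127 CPM in DRG SNI libraries, against 44.8, 33.0, 50.9, 57.3 and 33.0 CPM in DRG naive libraries. In cord it had 156, 166, 174 and 159 CPM in SNI libraries, against 89.5, 75.1, 78.7, 77.9 and 78.6 CPM in naive libraries. It rose in each tissue (1.42 ± 0.15 in DRG and 1.03 ± 0.14 in cord), and the difference of 0.39 ± 0.21 was not called (adjusted p = 0.326). Trem2, Cx3cr1, Aif1, Tyrobp, Tmem119 and Itgam were the other members that rose in both.

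The microglia list also held members whose responses differed between the tissues. Siglech, a lectin gene of microglia, had 2.14 to 4.05 CPM in DRG SNI, 1.34 to 3.51 in DRG naive, 19.9 to 23.7 in cord SNI and 8.16 to 10.8 CPM in cord naive libraries (difference -1.03 ± 0.31, adjusted p = 0.0468). Fcrls, P2ry13 and Sall1 rose in DRG and were not called in cord, with called differences of 1.24 ± 0.29, 0.88 ± 0.23 and 1.28 ± 0.24. Sall1, a transcription factor gene of microglia, was low in DRG (1.22 to 2.17 CPM in SNI and 0.448 to 1.12 CPM in naive libraries) and level in cord (39.8 to 47.6 CPM in SNI and 36.8 to 43.4 CPM in naive libraries).

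Complement genes rose for 8 of 15 members in DRG and 6 in cord, against 12.1% and 1.24% of all genes tested. Of the 15 members 5 rose in both, and the medians were 0.85 and 0.44. C1qa, C1qb and C1qc, the subunits of C1q, rose by 1.67 to 1.68 in DRG and by 1.16 to 1.42 in cord, with no called difference. Cfp, the properdin gene, was the 1 member with a called difference (0.76 ± 0.20, adjusted p = 0.0232). Of 20 genes of reactive microglia and lysosomes 14 rose in DRG and 7 in cord, 6 in both, among them the cathepsin gene Ctss (1.66 ± 0.20 and 1.41 ± 0.20). Lgals3 and Ctsb were the members with a larger DRG response. Serpina3n, a protease inhibitor gene of reactive astrocytes and injured neurons, had 328, 339, 283 and 298 CPM in DRG SNI libraries, against 175 to 197 CPM in DRG naive libraries. The cord libraries held 143, 116, 141 and 128 CPM in SNI libraries, against 75.8 to 86.3 CPM in naive libraries. Its fold changes were almost equal, 0.74 ± 0.07 in DRG and 0.71 ± 0.07 in cord, with a difference of 0.03 ± 0.10 (adjusted p = 0.915).

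Of 18 macrophage genes 15 rose in DRG and 4 in cord, against 12.1% and 1.24% of all genes tested. The difference was called higher in DRG for 6, against 4.84% of all genes tested, with list medians of 1.37 in DRG and 0.03 in cord. The sum of these 18 genes was 321, 422, 590 and 569 CPM in DRG SNI numbers 1 to 4, against 195, 130, 218, 250 and 131 CPM in DRG naive numbers 1 to 5. Other cell type markers moved with it. The sum of 12 fibroblast and matrix genes was 5258, 6838, 9226 and 8882 CPM in DRG SNI libraries, against 6168, 4592, 7527, 7165 and 4187 CPM in DRG naive libraries. General neuronal genes ran the other way, with sums of 15772, 14231, 12072 and 10921 CPM in DRG SNI libraries, against 10414 to 14011 CPM in DRG naive libraries. DRG SNI numbers 3 and 4 thus had the highest macrophage and fibroblast sums and the lowest neuronal sums of the 4, and SNI and naive libraries overlapped for the fibroblast and neuronal sums but not for the macrophage sum. The count of 6 called differences was 6 without number 3 and 6 without number 4, and 4 to 8 over all libraries left out in turn. Leaving out 1 library cannot show the part of these cell types in the result, which was not tested.

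Cd163, a scavenger receptor gene of tissue macrophages, had 12.3, 14.9, 25.1 and 23.3 CPM in DRG SNI libraries, against 9.72, 7.23, 8.22, 9.93 and 5.20 CPM in DRG naive libraries. Dorsal cord contained 2.33, 2.50, 2.23 and 2.94 CPM in SNI libraries, against 2.32 to 2.87 CPM in naive libraries. DRG separated and cord overlapped, with a difference of 1.29 ± 0.30 (adjusted p = 0.00964). Ms4a7, another macrophage gene, had 9.17, 13.2, 17.9 and 16.8 CPM in DRG SNI libraries, against 2.12 to 4.46 CPM in DRG naive libraries, and at most 0.591 CPM in any cord library (difference 2.51 ± 0.52, adjusted p = 0.00415). F13a1, Msr1, Mrc1 and Cbr2 were the others, with differences of 1.57 ± 0.38, 1.71 ± 0.42, 1.45 ± 0.38 and 1.97 ± 0.52. The 4 that rose in cord, Fcgr1, Fcgr3 and Mpeg1 among them, also rose in DRG, and microglia express these 3 too.

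**Figure D3:**
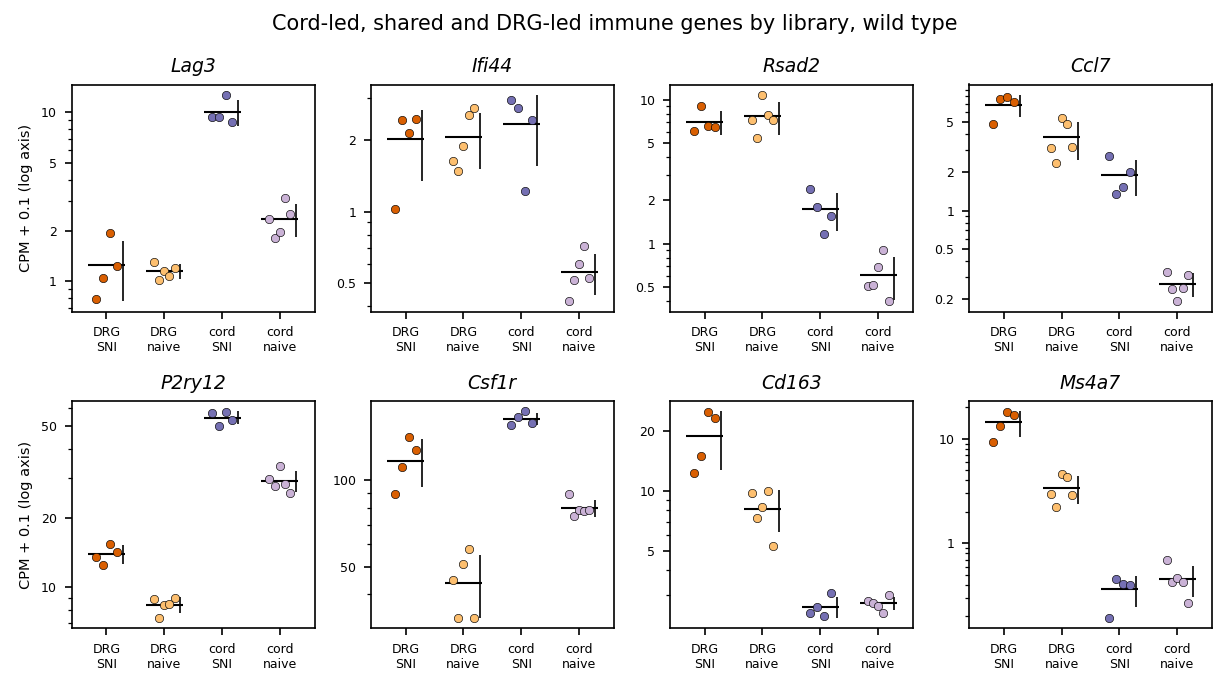
CPM plus 0.1 on a log axis in each library for 8 immune genes, in DRG SNI (4), DRG naive (5), cord SNI (4) and cord naive libraries (5) from left to right, with a horizontal bar at the mean and a vertical bar of 1 standard deviation. Lag3, Ifi44 and Rsad2 separate in cord and overlap in DRG, Ccl7 shows a larger gap in cord, P2ry12 and Csf1r separate in both tissues, and Cd163 and Ms4a7 separate in DRG only.

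Interferon response genes had fewer called rises in DRG than in cord. Of 19 members 7 rose in DRG and 11 in cord, 5 in both, and the difference was called lower for 6 and higher for none. The shares of all genes tested were 12.1% higher in DRG, 1.24% higher in cord and 3.82% with a lower difference. The list medians were 0.44 in DRG and 0.95 in cord. The count of 6 was 3 without DRG SNI number 3, without cord SNI number 1 or without cord SNI number 2. Rsad2, which encodes the antiviral enzyme viperin (GRCm38 chr12:26442746-26456452, minus strand), had 5.98, 8.92, 6.42 and 6.37 CPM in DRG SNI libraries, against 7.09, 5.32, 10.7, 7.69 and 7.07 CPM in DRG naive libraries. Its cord values were 2.28, 1.70, 1.07 and 1.45 CPM in SNI libraries, against 0.409, 0.415, 0.590, 0.805 and 0.296 CPM in naive libraries. Cord separated from a low base and DRG overlapped at a higher level, with a difference of -1.82 ± 0.36 (adjusted p = 0.00299). Ifi44, another interferon-induced gene, had 0.929, 2.33, 2.04 and 2.36 CPM in DRG SNI libraries, against 1.54, 1.38, 1.79, 2.44 and 2.62 CPM in DRG naive libraries. In cord it had 2.84, 2.63, 1.12 and 2.34 CPM in SNI libraries, against 0.318, 0.415, 0.499, 0.615 and 0.423 CPM in naive libraries. Injured cord thus came up to about the level of DRG (difference -2.31 ± 0.44, adjusted p = 0.00172).

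Usp18, a brake on interferon signalling, differed by -1.65 ± 0.41 (adjusted p = 0.0152), Ifit1 by -0.95 ± 0.28 (0.0430) and Oasl2 by -0.79 ± 0.23 (0.0368). Oasl2 and Ifit1 belong to families of close copies, so reads may be shared between them. Cord SNI number 3 had the lowest value of the 4 cord SNI libraries for Rsad2, Ifi44, Ifit1 and Usp18 (1.83 against 2.56 to 4.56 CPM in the other 3). Mx1 and Irf7 rose in both tissues, and their differences of -1.79 ± 0.58 and -1.0 ± 0.34 were not called (adjusted p = 0.0658 and 0.0804). Antigen presentation genes, many of which interferon induces, had no called difference, 0 of 15 called in DRG and 1 of 15 in cord (Nlrc5). The shares of all genes tested were 8.66% for the difference, 23.3% in DRG and 1.25% in cord.

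The promoters of Rsad2 and Ifit1 are shown because both hold the interferon-stimulated response element (ISRE), spelled GAAA, any 2 bases and GAAA, and searched on both strands, so that it stands here in its reverse form in capitals. In Rsad2 (RefSeq, GRCm38.p6, chr12:26456453-26456702, minus strand) the ISRE begins 120 bases before the start, and a TGANTCA match, also in capitals, 87 bases before it. In Ifit1 (chr19:34640639-34640888, plus strand) there are 2 ISRE matches, 104 and 85 bases before the start.
Rsad2: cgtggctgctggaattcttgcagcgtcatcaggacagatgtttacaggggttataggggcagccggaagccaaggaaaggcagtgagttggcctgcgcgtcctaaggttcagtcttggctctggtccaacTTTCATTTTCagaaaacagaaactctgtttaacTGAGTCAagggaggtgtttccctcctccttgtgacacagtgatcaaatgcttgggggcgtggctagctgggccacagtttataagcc
Ifit1: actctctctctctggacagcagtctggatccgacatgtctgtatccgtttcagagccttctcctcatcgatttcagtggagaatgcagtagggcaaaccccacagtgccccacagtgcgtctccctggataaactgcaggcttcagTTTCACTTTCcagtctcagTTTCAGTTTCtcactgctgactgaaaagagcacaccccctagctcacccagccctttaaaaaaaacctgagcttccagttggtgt
The ISRE stood before 7 of the 12 interferon list genes with a promoter in the table (58.3%), 3 of the 36 genes with a larger cord rise (8.33%) and 3.29% of all genes tested. These genes were put on the list for their known response to interferon, so their motif share describes the list and not the injury.

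Further genes responded more in cord than in DRG. Lag3, an inhibitory receptor gene of lymphocytes that microglia also express, had 0.686, 0.947, 1.83 and 1.14 CPM in DRG SNI libraries, against 0.917 to 1.21 CPM in DRG naive libraries. Cord levels were 9.27, 9.33, 12.6 and 8.65 CPM in SNI libraries, against 2.23, 1.71, 1.86, 3.03 and 2.41 CPM in naive libraries. The cord groups were far apart (2.15 ± 0.20, adjusted p = 9.33e-06) and the DRG groups overlapped, with a difference of -2.02 ± 0.32 (adjusted p = 0.000285). Ccl7, a monocyte attractant gene, rose in both tissues. It had 4.76, 7.46, 7.74 and 7.09 CPM in DRG SNI libraries, against 3.05, 2.29, 5.27, 4.76 and 3.09 CPM in DRG naive libraries. The cord libraries held 2.61, 1.25, 1.43 and 1.92 CPM in SNI libraries, against 0.227, 0.138, 0.0908, 0.142 and 0.211 CPM in naive libraries. The DRG rise of 0.87 ± 0.23 was smaller than the cord rise of 3.42 ± 0.36 (difference -2.55 ± 0.45, adjusted p = 0.000883), while the level after injury was higher in DRG.

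Of 17 chemokine and cytokine genes tested, 12 rose in DRG and 4 in cord (Ccl2, Ccl7, Ccl12 and Cxcl10), all 4 also in DRG. Of all genes tested, 12.1% rose in DRG and 1.24% in cord. The difference was called higher for 1 member, Csf1, and lower for 1, Ccl7, and the medians were 0.84 in DRG and 0.82 in cord. Ccl12 rose alike (1.99 ± 0.26 in DRG and 2.0 ± 0.35 in cord). Il6, a cytokine gene, rose in DRG (0.971 to 1.28 CPM in SNI and 0.212 to 0.422 CPM in naive libraries) at a cord level of at most 0.233 CPM. The Il6 difference was not called (1.71 ± 0.51, adjusted p = 0.0705). The protease inhibitor genes Serpina3h and Serpina3i rose more in cord (differences -1.58 ± 0.29 and -1.53 ± 0.31), but these and Serpina3n are close copies whose reads may be shared. Slc6a19, an amino acid transporter gene, and Ctla2a, a cathepsin inhibitor gene with a close copy, also had a larger cord rise (differences -1.26 ± 0.38 and -1.37 ± 0.29). Siglecf, a lectin gene, averaged 0.257 ± 0.0837 CPM in DRG SNI, 0.313 ± 0.129 in DRG naive, 2.09 ± 0.174 in cord SNI and 0.849 ± 0.172 CPM in cord naive libraries. Ly86, a partner of a toll-like receptor relative in myeloid cells, was picked after its values were seen. It had 49.3 to 52.2 CPM in DRG SNI, 29.2 to 64.6 in DRG naive, 25.7 to 30.1 in cord SNI and 7.79 to 11 CPM in cord naive libraries (difference -1.24 ± 0.25, adjusted p = 0.00343).

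The 7 genes called in opposite directions were Scn9a, Gpr35, Samsn1, Cd34, Rgs4, Coro1a and Lix1. All fell in DRG, where their level was the higher, and rose in cord. Scn9a encodes the sodium channel Nav1.7 of pain-sensing neurons (GRCm38 chr2:66480080-66634962, minus strand). It had 391, 402, 368 and 463 CPM in DRG SNI libraries, against 591, 575, 521, 600 and 604 CPM in DRG naive libraries. Dorsal cord contained 18.7, 14.9, 18.6 and 17.4 CPM in SNI libraries, against 9.68, 11.9, 9.94, 9.51 and 9.80 CPM in naive libraries. SNI and naive libraries were apart in both tissues, with changes of -0.51 ± 0.08 in DRG and 0.77 ± 0.09 in cord (difference -1.28 ± 0.12, adjusted p = 8.65e-07). Runx1, a transcription factor gene of nociceptors and of blood-derived cells, moved likewise but its DRG fall was not called (-0.32 ± 0.13 in DRG, adjusted p = 0.0887, and 1.25 ± 0.22 in cord, difference -1.57 ± 0.26).

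Gpr35, a receptor gene of sensory neurons and immune cells, had 22.8, 22.1, 18 and 19.8 CPM in DRG SNI libraries, against 30.2 to 34.7 CPM in DRG naive libraries. Its cord values were 0.885, 1.16, 1.25 and 1.71 CPM in SNI libraries, against 0.423 to 0.682 CPM in naive libraries. Its difference was -1.90 ± 0.21 (adjusted p = 7.76e-06), the widest of the 7. Samsn1, an adaptor gene of immune cells, had 11.2 to 13.9 CPM in DRG SNI, 16.6 to 20.3 in DRG naive, 2.47 to 3.39 in cord SNI and 1.09 to 1.75 CPM in cord naive libraries (difference -1.55 ± 0.18). The other 4 had differences between -0.93 and -0.58. Rgs4, a regulator of G protein signalling, Coro1a, an actin-binding gene of leukocytes, and Lix1 changed by at most 0.35 in either tissue. Without cord naive number 5 only 4 of these opposite calls were made.

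**Figure D4:**
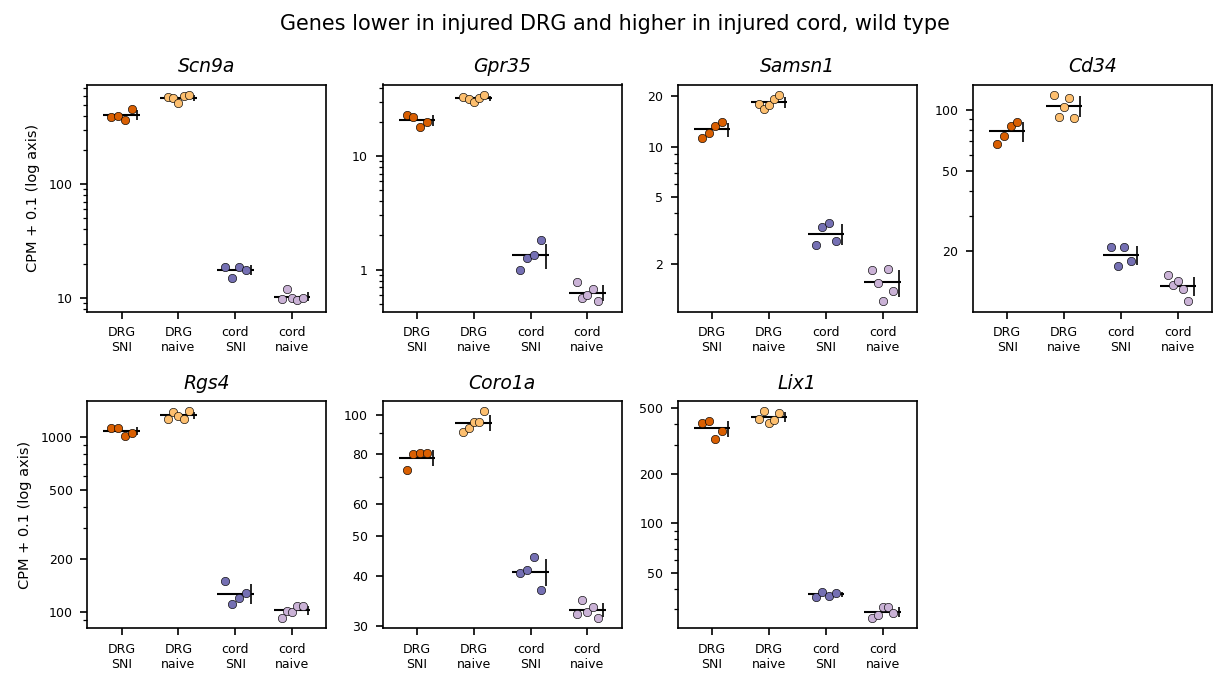
CPM plus 0.1 on a log axis in each library for the 7 genes called lower in DRG and higher in cord, in DRG SNI (4), DRG naive (5), cord SNI (4) and cord naive libraries (5) from left to right, with a horizontal bar at the mean and a vertical bar of 1 standard deviation. The DRG SNI points lie below the DRG naive points without overlap except for Lix1, and the cord SNI points above the cord naive points without overlap in all 7 panels.

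Some stress and activity genes rose in DRG, and none was called in cord. Over all genes tested, 12.1% rose in DRG and 1.25% were called in cord. Lists of this size without a cord call are therefore not particular to these genes. Of 17 genes of the unfolded protein and integrated stress response 8 rose in DRG and none was called in cord, and the difference was called for 6. Chac1, which breaks down glutathione and is a target of Atf4, had 14.3, 14.2, 14.2 and 11.2 CPM in DRG SNI libraries, against 2.13, 3.0, 1.86, 1.95 and 3.47 CPM in DRG naive libraries. In cord it had 6.66, 6.07, 8.43 and 6.99 CPM in SNI libraries, against 6.78 to 8.42 CPM in naive libraries. DRG separated and cord overlapped (difference 2.58 ± 0.22, adjusted p = 2.58e-07). Atf4 (0.60 ± 0.09), the asparagine synthetase gene Asns (0.48 ± 0.07), Sesn2 (0.96 ± 0.12), Trib3 (1.57 ± 0.34) and Psat1 (0.43 ± 0.09) were the other differences, while chaperone genes of the endoplasmic reticulum such as Hspa5 and Calr were not called in either tissue. Of 10 immediate early genes 5 rose in DRG and none in cord, with called differences for Btg2 and Dusp1.

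Of 13 astrocyte and satellite glia genes 4 rose and 2 fell in DRG and 2 rose in cord, Gfap and Serpina3n, and the difference was called for 3. Their summed level was 2618 to 3131 CPM in DRG SNI, 2346 to 2849 in DRG naive, 9027 to 9502 in cord SNI and 8085 to 8620 CPM in cord naive libraries, apart in cord and overlapping in DRG. The medians were 0.06 in DRG and 0.07 in cord. Gfap, the intermediate filament gene of reactive astrocytes and satellite glia, rose in both (1.27 ± 0.19 in DRG and 0.72 ± 0.17 in cord) at very unequal levels, 15.6 to 25.4 CPM in DRG SNI, 5.25 to 11.9 in DRG naive, 1725 to 1915 in cord SNI and 992 to 1299 CPM in cord naive libraries. Aldh1l1 and Glul, enzyme genes of these cells, rose in DRG with called differences (1.08 ± 0.14 and 0.53 ± 0.09), and the water channel gene Aqp4 fell in DRG with a difference of -0.82 ± 0.13. Of 18 dorsal horn neuron genes 1 rose in cord, Pdyn, the gene of dynorphin (0.52 ± 0.13, adjusted p = 0.0486, with 41.0 CPM in SNI and 28.6 CPM in naive libraries on average). In DRG 4 of these 18 rose and 1 fell. The difference was called higher for 3, Grp and Gad2 among them, and lower for 1, Calb1 (-0.55 ± 0.16). Gad2 was near 0 in DRG and its groups overlapped there, with 0.202 to 0.723 CPM in SNI and 0.0814 to 0.212 CPM in naive libraries. No difference was called for Schwann cell, oligodendrocyte, endothelial, fibroblast and matrix, cell cycle, cholesterol synthesis, respiratory chain, blood, neutrophil, T cell, B cell or skeletal muscle genes, and in cord no member of these lists was called. In DRG they gave 6 rises (among them Postn, Timp1, Apod, Ly6g and Cd4) and 7 falls (Scn7a, Ugt8a, Ndufs1, Sdha, Acta1, Myh1 and Mylpf). Among all 20044 genes tested, 23.3% were called in DRG, 1.25% in cord and 8.66% for the difference. As a whole these lists had a smaller share of DRG calls than all genes tested. Most calls in a single list were 3 of 12 fibroblast and matrix genes, all higher, and 3 of 8 skeletal muscle genes, all lower.

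**Figure D5:**
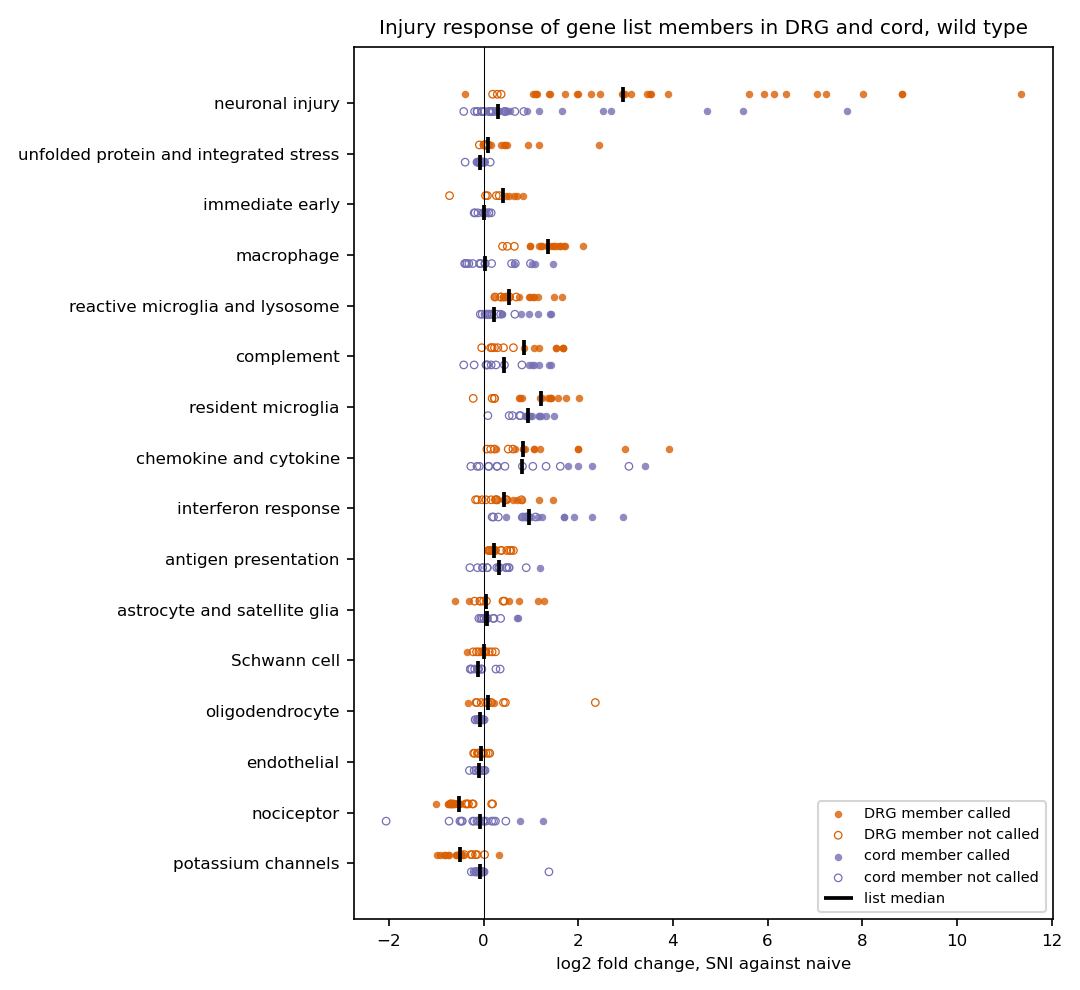
Log2 fold change of SNI against naive for each member of 16 gene lists, in DRG (upper row of each list, orange) and dorsal cord (lower row, purple), with filled points for genes called at an adjusted p under 0.05, open points for the rest and a black bar at the list median. The neuronal injury list reaches 11.36 in DRG and has a cord median of 0.30, the microglia medians are 1.22 and 0.93, and in the interferon list the DRG median (0.44) lies to the left of the cord median (0.95).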

How the data were processed

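RNA of DRG and dorsal cord was sequenced as stranded mRNA libraries made from 1 µg of RNA, per the labels' protocols. The submitters' processing notes name FastQC 0.11.5, HISAT2, RSEM and GRCm38, without their order or an annotation. For 55487 genes the authors deposited expected counts (estimated, not whole), of which 55227 were named by GENCODE M21. In the column of DRG SNI number 1, a column of the unit other in the deposited table, 9150 cells had decimal commas, read as points, and 1 unreadable cell was set to 1780.86 with the help of the normalised table. That table, deposited by the authors, held TMM-scaled signal values and served only this repair and 1 alternative.

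Expected counts were rounded. The 18 wild-type libraries were fitted together in edgeR 4.0.16 (R 4.3.3) with TMM, filterByExpr, 4 group means and 14 residual degrees of freedom, and the DRG minus cord contrast was tested by robust quasi-likelihood. Pooling the tissues gives cord more and DRG less spread than its own. Gene lists (30) were counted without a set test. Scripts were tested on simulated data. Alternatives used DESeq2 1.42.0 (size factors, Wald test), limma 3.58.1, other filters, a replicate block, all 36 libraries, each tissue alone and each library left out.

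Named genes were the 10 largest called differences in each direction with a group mean of at least 2 CPM and no overlap in at least 1 tissue, up to 8 per class of shared, opposite and cord-led genes, and up to 4 members per list. Other members named were picked after their values were seen. The members, lists and rules were chosen with earlier results of these data known. Promoters were 250 bases before RefSeq starts. Some genes are not reported here by name, and are only counted.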

Additional observations from a re-analysis of the deposited data

Results flagged for a closer look

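The injury response differed between DRG and cord for 1735 genes in the test of the difference itself, and 7 genes were called in opposite directions, as given above.

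A library far from the others of its group was looked for in 244 groups of values, where chance marks about 1 in 20, and 11 were found. Among single genes these were Csf1r in cord naive number 1 (89.5 CPM), Rsad2 in DRG SNI number 2 (8.92 CPM), Scn9a in cord naive number 2 (11.9 CPM), Tac1 in cord SNI number 1 (39.4 CPM) and Chac1 in DRG SNI number 4 (11.2 CPM). Among sums over a list these were neuronal injury genes in cord naive number 4 (2839 CPM), reactive microglia and lysosome genes in cord SNI number 4 (2733 CPM) and interferon response genes in cord naive number 1 (121 CPM). Neutrophil genes stood apart in DRG naive number 3 (510 CPM) and in cord naive number 4 (42.2 CPM), and cord tissue markers in DRG naive number 2 (30.0 CPM).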

How the results depend on the processing

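No called value of a named gene changed its direction in the alternatives run. The cord count of 250 was 410 with limma voom weights per tissue, 421 with all 36 libraries and 450 with each tissue alone. With all 36 libraries, genes higher in both tissues numbered 298, opposite genes 12 and genes with a larger cord rise 74. The difference was called for 2051 genes by DESeq2 and 1265 with no filter. Leaving out each library in turn gave 1342 to 1888 called differences, 4082 to 4886 genes in DRG, 189 to 292 in cord, 138 to 225 higher in both, 4 to 9 opposite and 29 to 49 with a larger cord rise. By list it gave 21 to 24 neuronal injury, 4 to 8 macrophage and 3 to 8 interferon differences, 9 to 12 microglia and 8 to 12 interferon rises in cord, and 10 to 15 potassium channel falls in DRG. Why single libraries moved these counts was not tested.

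Of 71 named genes with a called difference 60 kept it in every alternative and 11 lost it in some, among them Anxa10, Btg2, Calb1, Cfp, Ctsb, Dusp1, Slc6a19, Snap25, Sprr1a and Sst. Cord calls of Cd34, Ecel1, Lix1, Nlrc5, Npy, Pam16 and Rgs4 were lost in some, as were 14 of 81 DRG calls of named genes.

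With the number as a replicate block the difference was called for 1486 genes, 1366 of them shared with the 1735. Deviations from the group means correlated at 0.080 to 0.455 between same-numbered DRG and cord libraries, 8 of 9 pairs over 0.1, and at -0.286 to 0.089 between others, and all 18 libraries correlated best with their own number. The labels do not say what the number marks.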
